A study of Homo sapiens with 14 samples.

Results

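Matrix metalloproteinases (MMPs) are zinc-dependent proteases that cleave collagens and other components of the extracellular matrix. Hepatic stellate cells, the main producers of matrix in the injured liver, express several of them. p-JUN binding and histone marks were examined at 10 MMP genes: MMP1, MMP2, MMP3, MMP7, MMP9, MMP10, MMP12, MMP13, MMP14 and MMP15. These are 10 of the 19881 protein-coding genes of the annotation. For each gene, the peaks that overlapped its body or the 20 kb on either side (its window) were taken from all 14 peak lists. MMP7, MMP10, MMP1, MMP3, MMP12 and MMP13 lie on chromosome 11 within 435 kb and are all transcribed from the minus strand. MMP14 lies on chromosome 14, MMP2 and MMP15 on chromosome 16, and MMP9 on chromosome 20.

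The cells were LX-2, an immortalised human hepatic stellate line, unmodified and kept for 2 days on either a soft or stiff matrix, which the study's methods describe as polyacrylamide hydrogels. CUT&Tag, in which an antibody brings a transposase to its target and the released fragments are sequenced, was run with antibodies against phosphorylated JUN (p-JUN), H3K4me3, H3K27ac and H3K27me3. There were 2 libraries per matrix for p-JUN, H3K4me3 and H3K27me3, and 1 merged list per matrix for H3K27ac, which therefore has no replicate check. The p-JUN libraries labelled stiff carry TCP in their titles, the study's abbreviation for culture plastic, whereas the stiff libraries of the histone marks carry the name of a gel, so the substrate of those p-JUN cells is uncertain. The study's methods call the sequencing replicates biological, and the labels do not say how they were made, so p-values measure only the spread between these libraries. No RNA was measured in these files.

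JUN and FOS proteins form the transcription factor AP-1, which binds the palindromic sequences TGACTCA and TGAGTCA, and phosphorylation of JUN raises its activity. H3K4me3 marks active promoters, H3K27ac active promoters and enhancers, and H3K27me3 chromatin silenced by Polycomb.

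The lists held 48163 to 54168 peaks for p-JUN, 18096 to 18857 for H3K4me3, 18238 on soft and 13322 on stiff for H3K27ac, and 6974 to 19843 for H3K27me3. The fragments at each summit were recovered from the deposited fold and p-value, and the median p-JUN summit held 60 to 64 of them. For H3K4me3 it held 120 and 141 on soft but 151 and 207 on stiff, and for H3K27ac 27 and 26. H3K27me3 soft replicate 1 stood apart, with 19843 peaks against at most 9228 in the other 3 libraries. Of the 10 stellate and mesenchymal markers, TAGLN, COL1A1 and VIM carried both p-JUN and H3K4me3 at the start in all 4 libraries. Both were present in this way at 32.9% of coding genes, so this is near the background. None of the 4 hepatocyte, 2 endothelial and 3 epithelial markers examined carried either at its start. Of 4 leukocyte and macrophage markers, PTPRC and SPI1 carried neither, CD14 carried both and CD68 p-JUN alone. In the stellate list, PDGFRB had H3K4me3 in all 4 libraries and p-JUN in 2, COL1A2 p-JUN alone in 2, and COL3A1 H3K4me3 alone in 1. ACTA2, DES, LRAT and GFAP, which also belong to that list, carried neither p-JUN nor H3K4me3. ACTA2 had H3K27ac at its start in both lists of that mark.

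p-JUN was found at 4 of the 10 start sites. MMP1, MMP9 and MMP10 had a p-JUN peak within 1 kb of the start in all 4 libraries, and MMP3 in 3 of 4. Over all coding genes 34.4% had one in all 4 libraries, so 3 of 10 is near the background. At MMP1, the interstitial collagenase, the peak (chr11:102668818-102669357) had its summit 103 bp upstream of the start, with 55 and 53 fragments on soft against 47 and 46 on stiff. Both soft values lay above both stiff values, as at 16.2% of the 40433 p-JUN regions called in all 4 libraries. The difference did not pass the test (log2 stiff minus soft -0.27 ± 0.19 (SE), limma adjusted p = 0.362).

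At MMP3, or stromelysin-1, the peak (chr11:102714073-102714632) had its summit 64 bp upstream. It held 32 and 27 fragments on soft and 31 in stiff replicate 2, and no peak was called in stiff replicate 1. This was a weak peak in every library that called it, with a q-value stronger than or equal to that of 16.3% to 23.6% of its list. At MMP10, or stromelysin-2, the peak (chr11:102651255-102651600) had its summit 29 bp upstream, with 94 and 62 fragments on soft against 73 and 76 on stiff. Both stiff values fell between the soft ones. At MMP9, or gelatinase B, the peak (chr20:44636959-44637900) had its summit 45 bp upstream, with 65 and 71 fragments on soft against 60 and 55 on stiff. Here too the soft libraries were higher and the test was not passed (-0.30 ± 0.18 (SE), limma adjusted p = 0.261).

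The other 6 genes, among them MMP7 (matrilysin), MMP12 (macrophage elastase) and MMP13 (collagenase-3), had no p-JUN peak within 1 kb of the start in any library. At MMP7 no peak of any mark lay in the window in any of the 14 lists.

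No member had both H3K4me3 and p-JUN at the start in all 4 libraries, compared with 32.9% of coding genes. MMP1 alone of the 10 had each in at least 1 library, compared with 47.2%. MMP14, which encodes the membrane-bound protease that activates pro-MMP2, and MMP15, another membrane-type MMP, had H3K4me3 at the start in all 4 libraries, compared with 61.1% of coding genes. Neither had p-JUN there in any library, a combination found at 14.5% of coding genes. MMP9 and MMP10 had the reverse, p-JUN in all 4 libraries and H3K4me3 in none, which 1.14% of coding genes showed. At MMP1 the only H3K4me3 peak was a weak one in stiff replicate 1 (chr11:102667630-102667994), with 17 fragments and its summit 1036 bp downstream of the start, so it entered the 1 kb interval with its edge. MMP3, MMP7, MMP12 and MMP13 had no H3K4me3 peak at the start in any library.

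**Figure D1:**
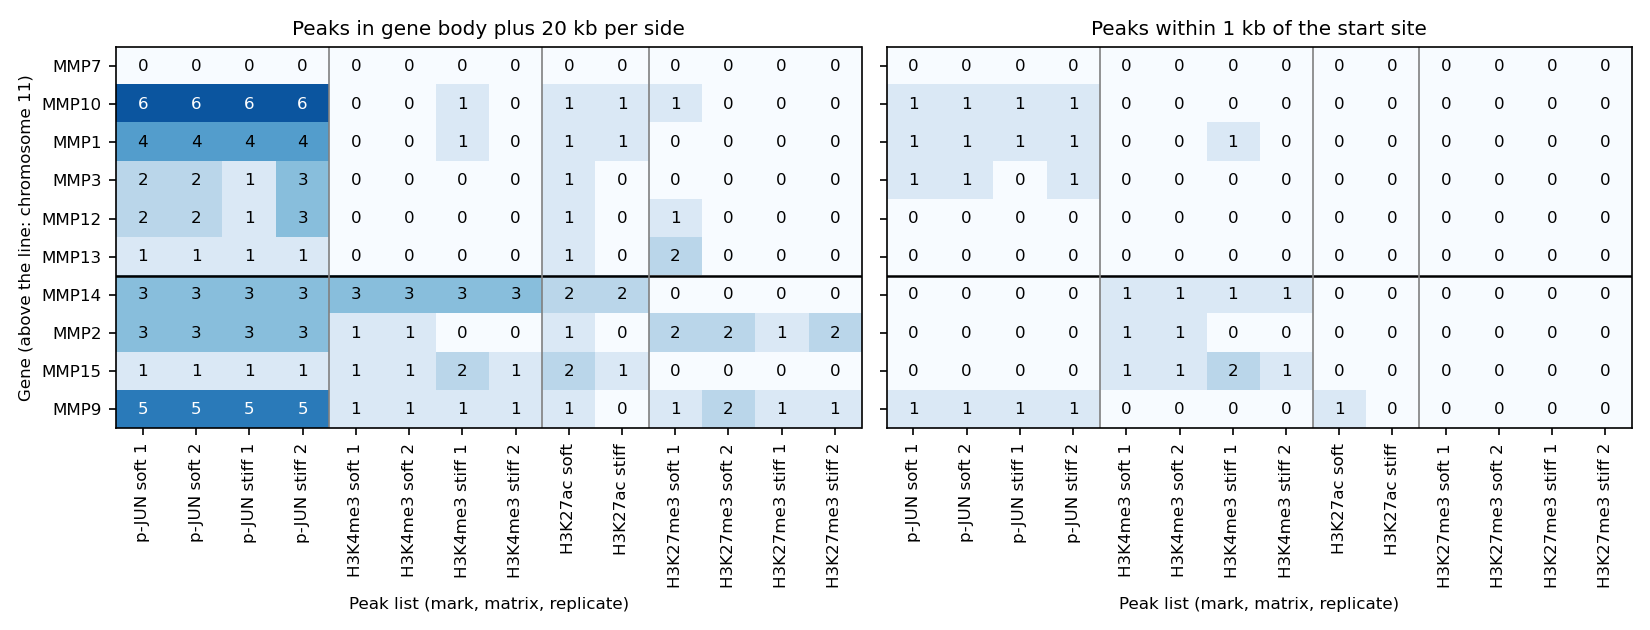
Number of peaks per gene (rows) and peak list (columns) in the gene body plus 20 kb per side (left) and within 1 kb of the start site (right). The 6 genes above the line lie on chromosome 11. p-JUN fills the rows of MMP10, MMP1 and MMP9 on the left, MMP7 is at 0 throughout, and on the right p-JUN and H3K4me3 fall in different rows except for 1 list at MMP1.

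At the MMP14 start, the H3K4me3 region (chr14:23305574-23307435) held 235 and 292 fragments on soft against 286 and 388 on stiff. The stiff summits were higher in general: over all 16098 regions called in all 4 libraries the uncentred median difference was 0.45 on the log2 scale. After each library was centred on its median, MMP14 stood at -0.12 ± 0.08 (SE) and did not pass the test (limma adjusted p = 0.434). At MMP15 (chr16:58060015-58061361) the summits held 70 and 75 fragments on soft against 104 and 185 on stiff. Both stiff values were higher, and after centring the difference was 0.47 ± 0.15 (SE), short of the threshold (limma adjusted p = 0.0725). It passed without soft replicate 1 (0.58, limma adjusted p = 0.0188) or stiff replicate 1 (0.62, limma adjusted p = 0.0494). Stiff replicate 1 had a further MMP15 peak of 60 fragments 94 bp upstream of the start.

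MMP2, or gelatinase A, had an H3K4me3 region called in both soft libraries and in neither stiff one. It lay in the gene, 663 bp downstream of the canonical start (chr16:55513425-55514526), with 32 and 35 fragments in the soft libraries. This was 1 of the 9 H3K4me3 regions in the windows, while 1.25% of all H3K4me3 regions had that pattern. None of the 9 was called in both stiff libraries and neither soft one (1.77% of all regions). Another 3 were called in stiff replicate 1 alone, at MMP1, MMP15 and 14742 bp downstream of the MMP14 start, while 4.67% of all regions were called in 1 stiff library and no other. The peak was weak for its lists, whose median summits held 120 and 141 fragments, and without a stiff call its difference could not be tested. Of the 9 regions, 4 were called in all 4 libraries, compared with 78.9% of all H3K4me3 regions.

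**Figure D2:**
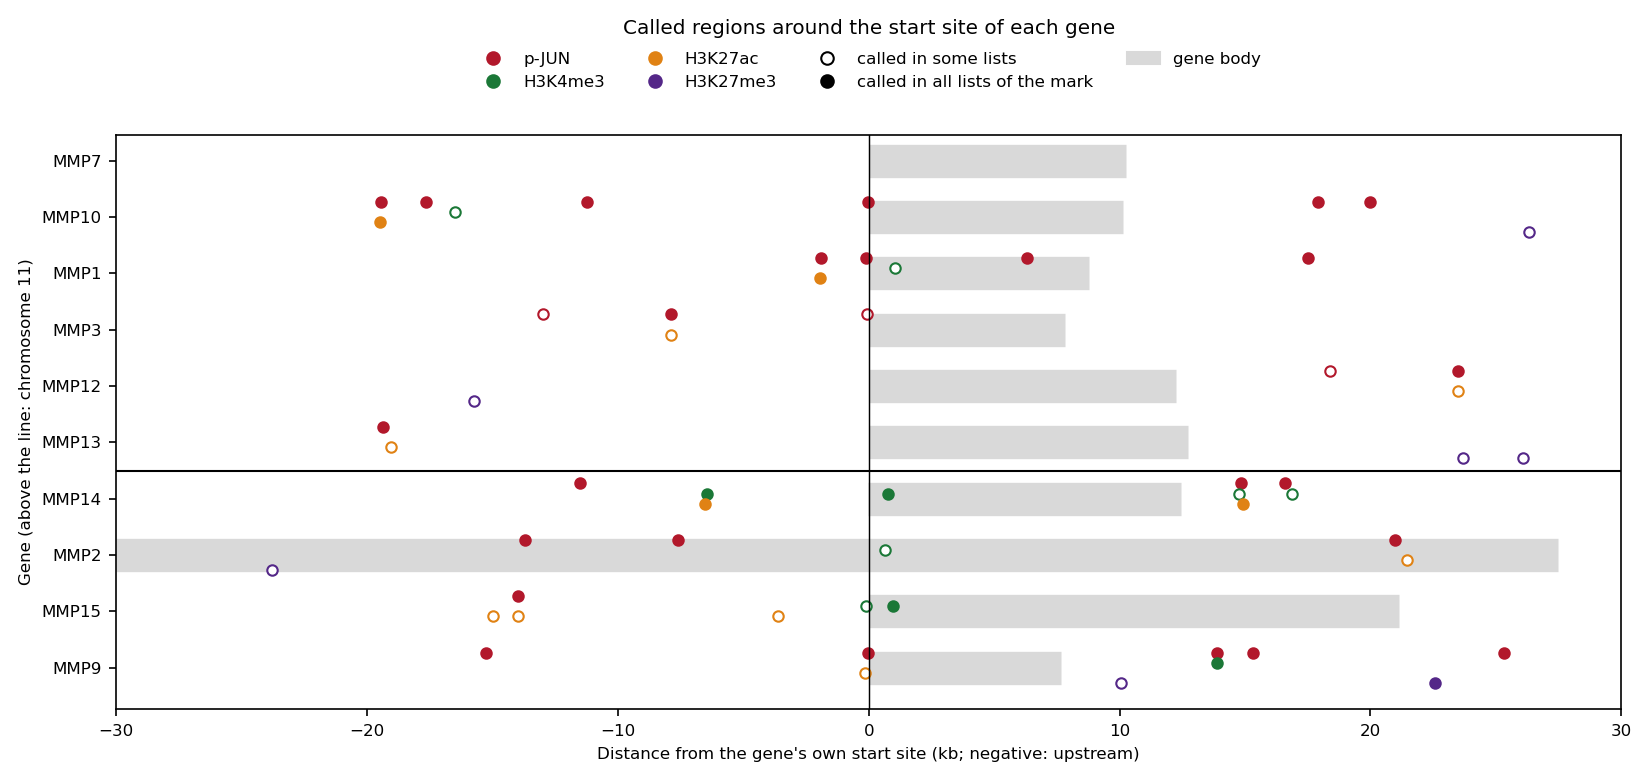
Called regions within 30 kb of each gene's own start site, by distance from it in kb, with 1 row per gene and 1 colour per mark. Filled points were called in every list of the mark and open points in some. p-JUN points sit on the line at 0 for MMP10, MMP1, MMP3 and MMP9, and H3K4me3 points just right of it for MMP14, MMP2 and MMP15.

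The p-JUN regions were then counted over the whole windows. In the 10 windows together p-JUN was called in 22 regions, of which 10 lay on chromosome 11 and 12 at the other 4 genes. Of the 22, 4 had their summit within 1 kb of one of the 10 starts. The share of all p-JUN regions near a gene start was not computed, so this count cannot be called particular to the MMP genes. All 4 libraries called 20 of the 22, compared with 65.8% of the 61411 p-JUN regions of the genome. 1 region, at the MMP3 start, was called in 3 libraries, and 1 in stiff replicate 2 alone (chr11:102727246-102727483, 12991 bp upstream of MMP3, 37 fragments). A call in 1 stiff library and no other was seen in 8.14% of all regions. No region was called in both soft libraries and neither stiff one, compared with 1.74% of all regions, and none in both stiff libraries and neither soft one, compared with 2.75%. Without stiff replicate 2 the MMP3 start counted as soft-only, and without stiff replicate 1 the site 12991 bp upstream as stiff-only, 1 region each. A p-JUN peak lay in the window in all 4 libraries for 9 of the 10 genes, compared with 74.6% of coding genes.

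Selected p-JUN regions are shown with 50 bases on either side of the median summit, from the GRCh37 (hg19) assembly. Each is given in the direction of the nearest gene named. Capitals mark TGANTCA, which covers TGACTCA and TGAGTCA, reads the same on both strands and was chosen for the display after the sites were seen. Shown are the regions with the most fragments in the windows of MMP3, MMP9, MMP13, MMP2 and MMP10. The 1 region that differed between the matrices, 19989 bp downstream of the MMP10 start, was added. The regions with the most fragments in the MMP14 and MMP15 windows, 14819 bp downstream and 13968 bp upstream, are not shown. Both held neither TGACTCA nor TGAGTCA within 50 bp of the summit.

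MMP3 7897 bp upstream (chr11:102722187-102722287, minus): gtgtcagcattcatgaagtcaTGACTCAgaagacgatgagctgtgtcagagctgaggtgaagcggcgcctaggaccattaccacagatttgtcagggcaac
MMP9 15260 bp upstream (chr20:44622237-44622337, plus): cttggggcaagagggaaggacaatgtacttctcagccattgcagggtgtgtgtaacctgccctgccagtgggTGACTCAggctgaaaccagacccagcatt
MMP13 19354 bp upstream (chr11:102845765-102845865, minus): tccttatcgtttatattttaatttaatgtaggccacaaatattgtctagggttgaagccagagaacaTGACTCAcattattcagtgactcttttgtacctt
MMP2 7621 bp upstream (chr16:55505439-55505539, plus): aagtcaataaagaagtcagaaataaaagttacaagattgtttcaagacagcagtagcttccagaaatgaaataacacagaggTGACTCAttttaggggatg
MMP10 17923 bp downstream (chr11:102633386-102633486, minus): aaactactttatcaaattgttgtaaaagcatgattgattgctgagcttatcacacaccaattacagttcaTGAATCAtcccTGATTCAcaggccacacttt
MMP10 19989 bp downstream (chr11:102631320-102631420, minus): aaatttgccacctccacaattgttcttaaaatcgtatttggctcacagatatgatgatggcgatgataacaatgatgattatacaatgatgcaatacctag

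The region with the most p-JUN fragments lay between MMP3 and MMP12, 7897 bp upstream of the MMP3 start (chr11:102721828-102722580, intergenic). Its summit held 332 and 302 fragments on soft against 307 and 311 on stiff, and lay within 2 bp in the 4 libraries. By q-value it was at the 95.8 to 96.9 percentile of the lists. The groups overlapped and the difference was -0.09 ± 0.08 (SE) on the log2 scale (limma adjusted p = 0.507). H3K27ac was called over this site in the soft list, with 14 fragments at its summit, but not on stiff.

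MMP13 had a single p-JUN region, 19354 bp upstream at the edge of its window (chr11:102845247-102846171), with 150 and 124 fragments on soft against 125 and 112 on stiff. The difference of -0.26 ± 0.13 (SE) did not pass the test (limma adjusted p = 0.150), and the soft range reached into the stiff one. Without stiff replicate 1 it did (-0.45, limma adjusted p = 0.0150). MMP1 had further regions 1903 bp upstream and 6288 bp downstream, in an intron of the gene, with 33 to 46 and 25 to 47 fragments. Both lie in introns of WTAPP1, a transcribed pseudogene that spans MMP1 and MMP10, so position alone does not tie them to MMP1.

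2 regions downstream of MMP10, also in introns of WTAPP1, were among the strongest in the windows. The region 17923 bp downstream of the MMP10 start (chr11:102633160-102634515) held 188 and 146 fragments on soft against 163 and 167 on stiff. The region 19989 bp downstream (chr11:102631134-102631633) held 156 and 152 on soft against 115 and 120 on stiff. It was lower on stiff by the centred fit, at -0.45 ± 0.12 (SE) on the log2 scale (limma adjusted p = 0.00595, n = 2 per matrix), and it was the only 1 of 20 regions tested that passed. Over all 40433 p-JUN regions tested, 7.37% were lower and 6.15% higher on stiff, so 1 of 20 is no more than the background. Without centring 202 were higher and 20 lower, and with quantile normalisation 2351 and 1477, against 2487 and 2980. The call did not hold without centring (-0.39, limma adjusted p = 0.541), on the deposited fold over local background (-0.28, limma adjusted p = 0.552) or without soft replicate 2 (-0.35, limma adjusted p = 0.258).

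**Figure D3:**
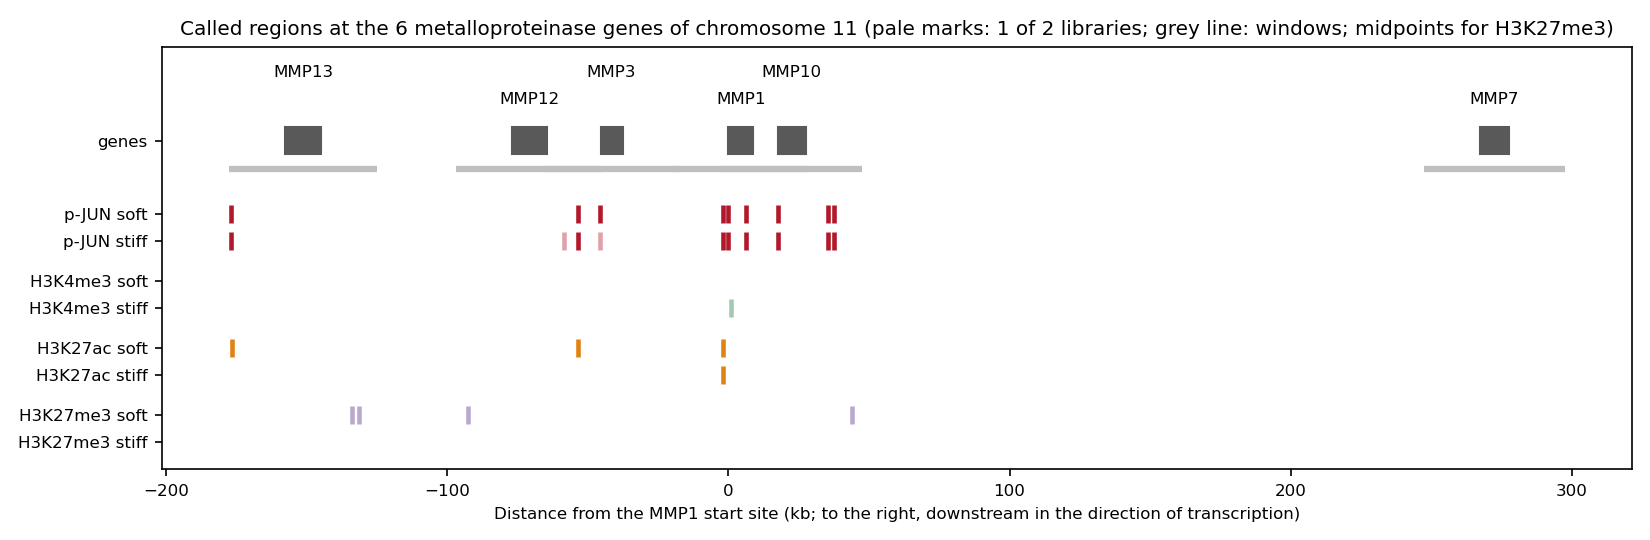
Called regions at the 6 chromosome 11 genes, by distance from the MMP1 start in kb, with 1 line per mark and matrix. Pale marks were called in 1 of 2 libraries, boxes are gene bodies and the grey line shows the windows. The p-JUN lines of soft and stiff repeat each other from MMP13 to MMP10 apart from 2 pale marks on stiff at MMP3, no mark is drawn at MMP7, and H3K4me3 appears once.

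MMP9 had 5 p-JUN regions, each called in all 4 libraries. Those 15260 bp upstream of the start (chr20:44621983-44622580) and 15300 bp downstream (chr20:44652593-44653240, within the annotated span of SLC12A5) held the most fragments. The upstream site held 161 and 136 on soft against 129 and 147 on stiff, and the downstream site 157 and 119 on soft against 151 and 144 on stiff. In both, soft and stiff values overlapped, and the differences of -0.16 ± 0.12 and 0.05 ± 0.12 (SE) did not pass the test (limma adjusted p = 0.383 and 0.810). The upstream site was at the 83.5 to 86.1 percentile of its lists.

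A site 13870 bp downstream of the MMP9 start, also in an intron of SLC12A5, carried both p-JUN and H3K4me3 in all 4 libraries. The H3K4me3 summit fell on the same base in the 4 libraries and the p-JUN summits within 3 bp. H3K4me3 (chr20:44650308-44651694) held 78 and 110 fragments on soft against 77 and 100 on stiff, and these values overlap. After centring, which removes the general shift in summit fragments between libraries, the difference was -0.54 ± 0.15 (SE, limma adjusted p = 0.0425). It was 1 of 4 H3K4me3 regions tested, while 2.17% of all 16098 were lower and 2.29% higher on stiff. The call was lost in 7 of 9 alternative fits, among them no centring (-0.08, limma adjusted p = 0.884), quantile normalisation (-0.47, limma adjusted p = 0.117) and the deposited fold (-0.12, limma adjusted p = 0.692). It was also lost without soft replicate 2 (-0.45), stiff replicate 1 (-0.62) or stiff replicate 2 (-0.46), at limma adjusted p of 0.128, 0.0510 and 0.216.

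At MMP2, p-JUN lay 7621 bp upstream (chr16:55504589-55506603), 13706 bp upstream and 20979 bp downstream of the canonical start. All lay within the annotated span of the gene and outside its canonical exons. The first held 148 and 116 fragments on soft against 122 and 124 on stiff, so the stiff values lay within the soft range. The other 2 held 26 to 45 and 44 to 66. MMP14 had regions 11524 bp upstream, in an intron of SLC7A7, and 14819 and 16578 bp downstream. The middle one (chr14:23320316-23320912) was the strongest, with 105 and 94 fragments on soft against 84 and 110 on stiff. MMP15 had 1 region, 13968 bp upstream in an intron of USB1 (chr16:58044528-58045938), with 51 and 55 fragments on soft against 52 and 73 on stiff. Sites this far away may belong to the neighbouring genes, and distance does not say which gene a site serves.

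**Figure D4:**
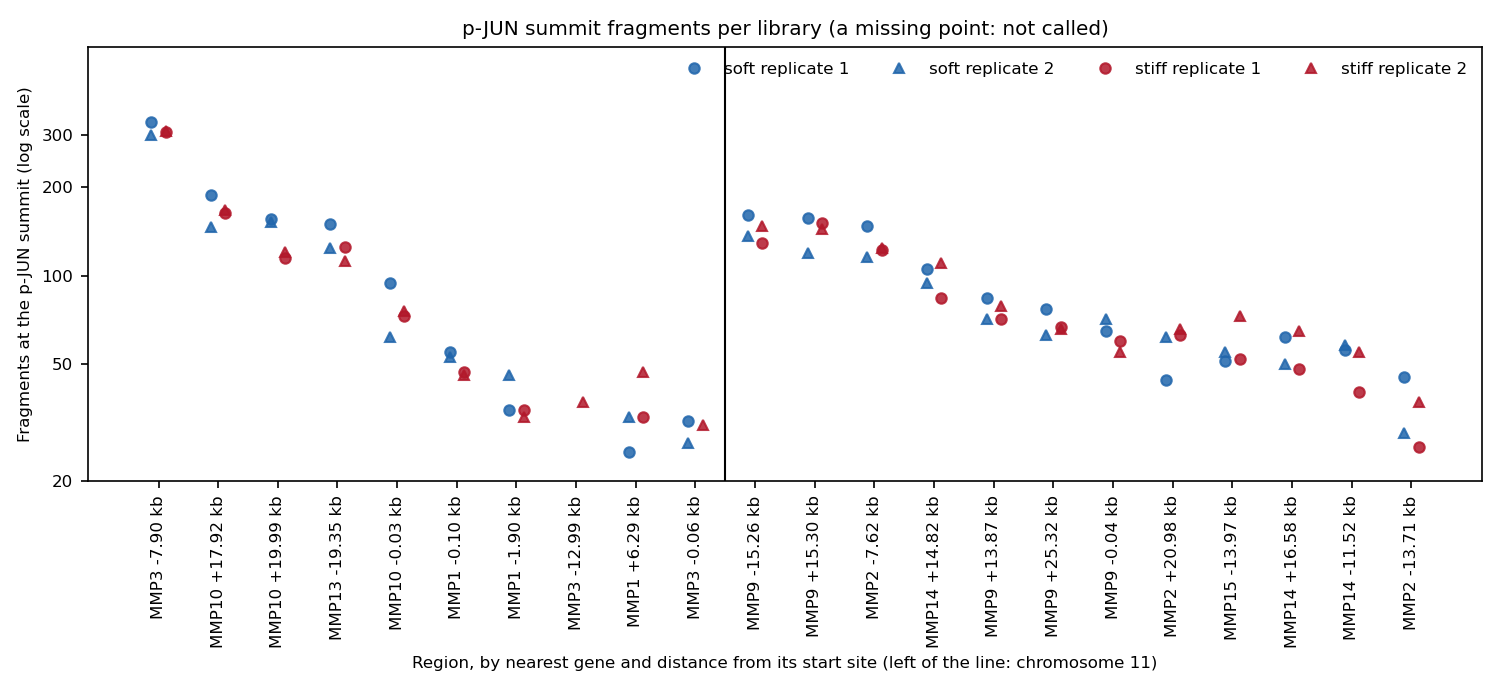
Fragments at the p-JUN summit (log scale) in each of the 22 regions and 4 libraries, with chromosome 11 to the left of the line and regions ordered by their mean. The site 7897 bp upstream of MMP3 stands above all others at 302 to 332 fragments, and in most regions the soft and stiff points overlap.

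Set together, the windows held as many p-JUN peaks on soft as on stiff. There were 21 and 21 peaks on soft against 20 and 22 on stiff, a mean of 21.0 on each and a log2 ratio of 0 (exact permutation test, two-sided, p = 1.0; the smallest p for 2 libraries against 2 is 0.333). Among the 20 regions called in all 4 libraries, both soft values exceeded both stiff values in 4 and the reverse held in 1. Among all 40433 regions so called, the shares were 16.2% and 20.4%. The centred differences of the 20 ran from -0.45 to 0.40 with a median of -0.11, compared with -0.05 over all 40433. With the deposited fold in place of fragments, limma called none of the 40433 regions, while 3773 had an unadjusted p below 0.05.

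**Figure D5:**
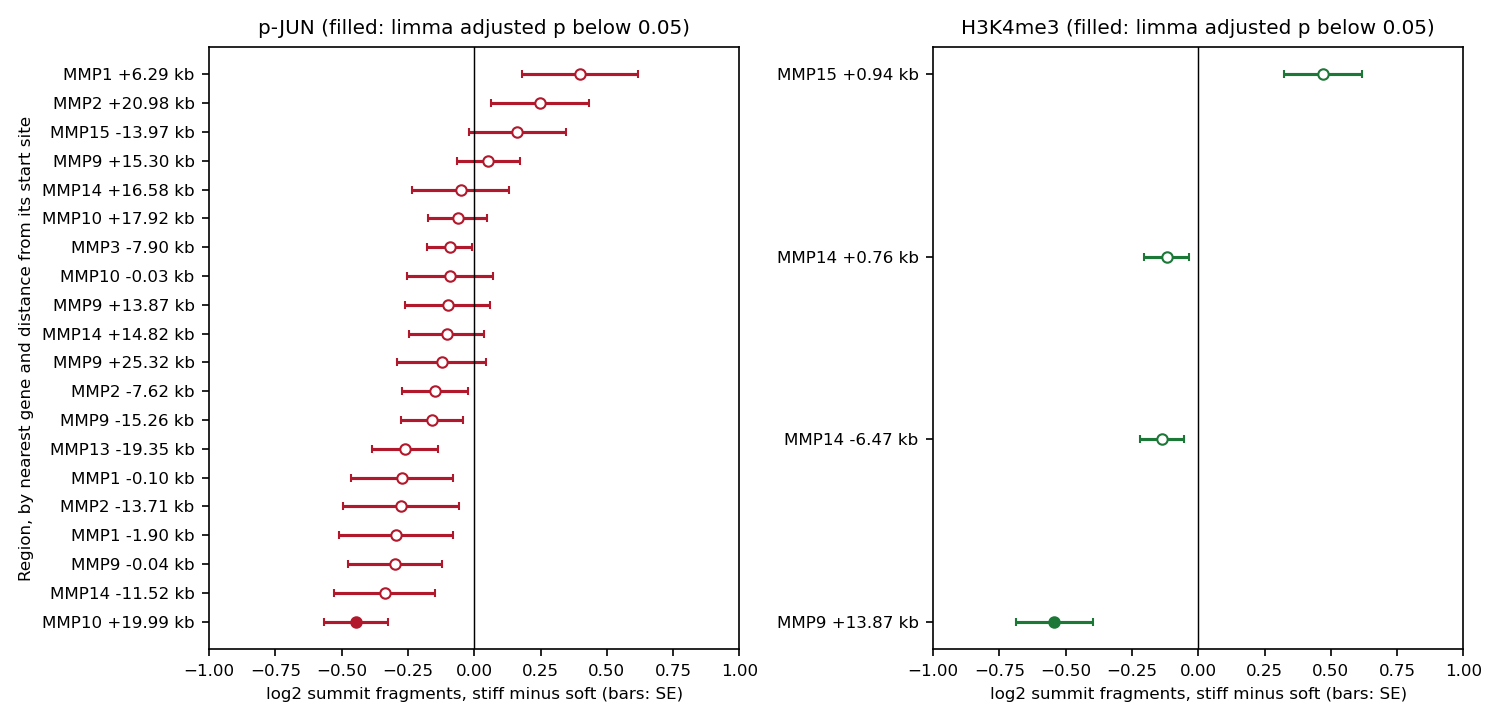
Difference in log2 summit fragments, stiff minus soft, with its SE, for the 20 p-JUN and 4 H3K4me3 regions called in all 4 libraries. Each library was centred on its median, and filled points have a limma adjusted p below 0.05. 1 filled point stands in each panel, at 19989 bp downstream of MMP10 and at 13870 bp downstream of MMP9.

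The chromosome 11 genes were then set beside the other 4. Windows that overlap were counted once, and p-JUN peaks numbered 3.64 per 100 kb on chromosome 11 in both soft libraries and 3.23 and 4.04 in the stiff ones. The other windows held 3.77 per 100 kb in all 4 libraries. The log2 ratio of the former to the latter was -0.06 ± 0.13 (SD, n = 4 libraries) and the libraries of soft and stiff overlapped (exact permutation test, two-sided, p = 1.0). With flanks of 5 or 50 kb in place of 20 kb it was 0.37 and 0.26, so the order of the 2 sets depends on the flank. For H3K4me3 the chromosome 11 windows (247 kb) held 0 peaks in 3 libraries and 1 in stiff replicate 1. The other windows (318 kb) held 6, 6, 6 and 5. The latter include a region 229 bp downstream of the MRPL52 start, with 235 to 394 fragments, and the site within SLC12A5. Both were called in all 4 libraries and may belong to the neighbouring genes.

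Density was uneven within both sets. Over the 4 libraries the MMP10 window had 12.0 p-JUN peaks per 100 kb, more than 99.3% of coding genes, and MMP9 and MMP1 had 10.5 and 8.20, more than 98.5% and 95.2%. The windows of MMP1 and MMP10 overlap and share 4 regions. The median coding gene had 2.42. MMP14, MMP3 and MMP12 came next at 5.72, 4.18 and 3.83, and MMP3 and MMP12 share all their p-JUN regions. MMP2 (1.91), MMP13 (1.90) and MMP15 (1.64) were below the median, and MMP7 was at 0.

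The AP-1 motif (TGACTCA or TGAGTCA) within 50 bp of the summit was present in 42.9% and 38.1% of the p-JUN peaks of the windows on soft, and in 8 of 20 and 9 of 22 (40.9%) on stiff. In the whole lists the shares were 32.2%, 32.4%, 32.8% and 30.6%. With 20 to 22 peaks per library the 95% Wilson intervals of the former ran from 20.8% to 63.5% and include the latter. The mean was 40.5% on each matrix (exact permutation test, two-sided, p = 1.0, n = 2 libraries each). Of the 22 regions, 9 held the motif near the median summit, 5 of 10 on chromosome 11 and 4 of 12 at the other genes. Among the regions called in all 4 libraries it was present in 5 of the 10 with the most fragments and 3 of the other 10. The sites 17923 and 19989 bp downstream of MMP10, printed above, held none. The capitals at the former are TGAATCA and TGATTCA, which were not counted as the motif.

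H3K27ac was called at 10 places in the windows, with 9 peaks in the soft list against 4 in the stiff one. The log2 ratio was -1.17, with a 95% exact binomial interval of -3.32 to 0.67 that covers counting error only. Cut to the same length by q-value, the lists held 5 and 4. Of the 10 regions 3 were in both lists (54.1% of all H3K27ac regions), 6 only on soft (35.0%) and 1 only on stiff (10.9%). Those in both lay 1957 bp upstream of MMP1, 149 bp downstream of the start of MRPL52 next to MMP14, and 14900 bp downstream of the MMP14 start (chr14:23320261-23320965). The last was the strongest, with 59 fragments on soft and 52 on stiff.

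The only H3K27ac peak at a start site was that of MMP9 (chr20:44637050-44637632), over the p-JUN peak, with 25 fragments on soft and no call on stiff. A start-site peak in the soft list alone was found at 10.3% of coding genes. The other soft-only peaks lay over the p-JUN sites upstream of MMP3 and MMP13, over that 20979 bp downstream of MMP2, over that 13968 bp upstream of MMP15, and 3602 bp upstream of MMP15. They held 14 to 22 fragments and were at or below the 52.1 percentile of the soft list. Near the MMP15 site the stiff list held a peak of 22 fragments about 1 kb away, within the same p-JUN region. Altogether 7 of the 22 p-JUN regions overlapped an H3K27ac peak on soft and 3 on stiff, compared with 26.9% and 20.1% of all p-JUN regions. The soft list is the longer, and cut to the same length the lists held 5 peaks on soft and 4 on stiff. The part of list length in the overlaps with p-JUN was not tested.

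H3K27me3 covered little of the windows. It spanned 6.17 and 2.42 kb of their 566 kb on soft and 0.772 and 1.60 kb on stiff, a difference of -3.10 kb (exact permutation test, two-sided, p = 0.333, the smallest possible). Without soft replicate 1 the difference was -1.23 kb, and without soft replicate 2 it was -4.98 kb. With lists cut to equal length it was -0.65 kb (1.84 kb on soft and 1.19 kb on stiff), and with 5 kb flanks -0.47 kb. Of the 10 regions, 2 were called in all 4 libraries, compared with 10.2% of all H3K27me3 regions, and 5 in soft replicate 1 alone, compared with 41.7%. All 4 H3K27me3 peaks on chromosome 11 were of the latter kind. The 2 constant regions lay upstream of the annotated span of MMP2, 108096 bp from the canonical start (chr16:55404562-55405467), and 22583 bp downstream of the MMP9 start in SLC12A5 (chr20:44659496-44660765). An H3K27me3 peak in the window in all 4 libraries was found for these 2 of 10 genes and for 10.5% of coding genes. No H3K27me3 peak lay within 1 kb of any of the 10 starts, nor over any of the 22 p-JUN regions. The matching shares over all coding genes and all p-JUN regions were not computed. These absences therefore cannot be called particular to the MMP genes.

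Other genes of the family and their inhibitors were examined in the same way. Of 13 further MMP genes, MMP16 and MMP19 had p-JUN at the start in all 4 libraries, compared with 34.4% of coding genes. MMP16, MMP17, MMP19 and MMP25 had H3K4me3 there in all 4, compared with 61.1%. At MMP16 and MMP19 both were thus present, compared with 32.9%. MMP17 had p-JUN in 2 libraries beside its H3K4me3, and MMP28 had p-JUN in 3 and H3K4me3 in 2. With these, 4 of the 13 had each mark in at least 1 library, compared with 47.2% of coding genes. MMP8, MMP20 and MMP27, which lie in the same chromosome 11 cluster, had neither at the start in any library. Among 5 inhibitors, TIMP1, TIMP2 and TIMP3, which encode tissue inhibitors of metalloproteinases, had both p-JUN and H3K4me3 at the start in all 4 libraries. This pattern was found at 32.9% of coding genes, and the difference between so short a list and that share was not tested. RECK, a membrane-anchored inhibitor, had H3K4me3 in all 4 and p-JUN in 1, and TIMP4 had neither.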

How the data were processed

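Per the labels and the study's methods, the authors used Trim Galore for trimming, Bowtie2 for alignment to hg19, Picard for duplicates and MACS2 for the peaks. The MACS2 version, options and any control library are not given in the sources used here. The labels give 10000 cells per assay and the methods a higher number. Each deposited list holds per peak a fold (a ratio over local background at the summit), −log10 p, −log10 q and a score. Narrow peaks (p-JUN, H3K4me3, H3K27ac) had a −log10 q of at least 5.00 and broad peaks (H3K27me3) of at least 1.31. No scaling between lists by the authors is stated, so list lengths can follow depth, and no read totals were analysed here.

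From these, whole fragments per summit were recovered for 100% of narrow peaks at a relative error under 1e-04, from the fold (a pseudocount of 1 on either side of the ratio) together with the Poisson p. PCR copies cannot be told from molecules. The depth of H3K27me3 is unknown. Peaks of 24 chromosomes were kept, and peaks of a mark sharing 1 bp were merged into regions. Genes, canonical start sites and sequence came from GENCODE release 44 mapped to GRCh37, the build of the lists. A site was called intronic where it lay within a gene's annotated span and outside the exons of its canonical transcript. Exons and starts of other transcripts were not examined. Sites were named by a fixed rule: all regions within 1 kb of a member's start, all called on 1 matrix alone, all past the limma threshold, and the region with the most p-JUN fragments per window. Others are given for context. Sequence at the start sites is not reported here. Log2 fragments were centred per library and tested over all regions called in all 4 libraries with limma 3.58.1 (R 4.3.3, Benjamini-Hochberg, threshold 0.05). Library values were compared by exact permutation tests, with python 3.11.15 and scipy 1.17.1. Region merging, fragment recovery and limma were tested on simulated data. The changes planted for limma were larger than any difference reported here, and no shift between libraries was planted. That test therefore does not cover differences of the size reported, or the effect of centring. PECAM1, on the marker list, was not matched by name and was left out. The members, lists and tests were chosen with earlier results of these data known. Alternatives covered flanks, q-value thresholds, list length, scaling, left-out replicates and a replicate block.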

Additional observations from a re-analysis of the deposited data

How the results depend on the processing

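The log2 ratio of p-JUN peaks ran from -0.07 to 0.07 over left-out replicates, that of H3K4me3 from -0.26 to 0.22, and the H3K27me3 difference from -4.98 to -1.23 kb. The latter was -0.65 kb with lists of equal length and -0.47 kb with 5 kb flanks, against -3.10 kb. The replicate numbers are not stated to pair samples: same-numbered libraries deviated together with correlations of 0.0508 (p-JUN) and -0.0612 (H3K4me3). With a replicate block the log2 ratios were -0.00164 for p-JUN and -0.02 for H3K4me3 peaks, the H3K27me3 difference -3.10 kb, and the regions past limma 1 for p-JUN and 0 for H3K4me3, whose MMP9 region was then at -0.54 (limma adjusted p = 0.103). Over all regions limma called 2752 higher and 3322 lower for p-JUN under the block, and 44 and 51 for H3K4me3, against 2487 and 2980, and 369 and 349, without it.

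One-matrix p-JUN regions numbered 1 on stiff and 1 on soft with a 50 kb flank, 1 on soft with lists of equal length, and 0 to 1 of each over left-out replicates. Without stiff replicate 1 the site 12991 bp upstream of MMP3 counted as stiff-only, and without stiff replicate 2 the MMP3 start as soft-only. Regions past limma fell from 1 to 0 for p-JUN without centring and with the fold, and for H3K4me3 without centring, with quantile normalisation and with the fold. Over left-out replicates they ran from 0 to 2 for each mark. Over all regions, limma called 202 higher and 20 lower for p-JUN and 1 and 0 for H3K4me3 without centring, 2351 and 1477 and 56 and 45 with quantile normalisation, and 0 of either mark with the fold, where 3773 and 1607 had an unadjusted p below 0.05. Without a replicate these counts ranged from 802 to 2393 higher and 444 to 2959 lower for p-JUN, and from 129 to 741 and 145 to 422 for H3K4me3. The density ratio was 0.37 and 0.26 with flanks of 5 and 50 kb. The motif share was 48.8% within 100 bp of the summit, against 40.5% within 50 bp.

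Regions that did not pass the test changed sign in a few settings. With the fold, the differences were 0.0911 at 17923 bp and 0.0171 at 29 bp from the MMP10 start, 0.0942 at 14819 bp from MMP14 and 0.0300 at 15260 bp from MMP9. Without centring, the MMP14 start was at 0.35 for H3K4me3. Over left-out replicates the differences ran from -0.15 to 0.0301 and from -0.28 to 0.0944 at the 2 MMP10 sites, from -0.19 to 0.00897 at 7897 bp from MMP3, and from -0.00655 to 0.33 at 13968 bp from MMP15. The cause of these changes was not tested. With 2 libraries per matrix and summits of 25 to 332 fragments, differences of the size of their SE, 0.08 to 0.22 on the log2 scale, could not be detected.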
